A study of Rattus norvegicus with 6 samples.

Results

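A set of 10 genes for the enzymes and chaperones that hydroxylate, fold, process and crosslink collagen were examined in rat bone marrow cells cultured under low-intensity pulsed ultrasound (LIPUS) and in untreated controls. They were Plod1, Plod2, Plod3, P4ha1, P4ha2, Serpinh1, Fkbp10, Pcolce, Lox and Loxl1. A probe belonged to a gene when the RefSeq accession in its name, without the version, was that gene's. By this rule 8 of the 10 genes had a probe, 12 probes in all, out of 8899 genes named on the array. Lox and P4ha2 were not analysed here. The study grew marrow cells of male rats, 8 weeks old, under osteogenic conditions and took total RNA on day 10 of culture. Control cultures (3 samples) received no ultrasound and LIPUS cultures (3 samples) did, and each sample was hybridised to its own Cy3 single-colour array. The labels name no transgene or strain, and they state neither the ultrasound settings nor the culture medium. The labels also do not say whether the 3 samples of a group came from separate animals or cultures, so the p-values below measure only the spread between these samples, which may be technical.

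Collagen chains are modified while they are still unfolded in the endoplasmic reticulum. Prolyl 4-hydroxylases make the 4-hydroxyproline that keeps the triple helix stable, and lysyl hydroxylases make the hydroxylysine that carries sugars and takes part in crosslinks. Folded procollagen is bound by the chaperone HSP47, trimmed outside the cell at both ends, and then crosslinked by lysyl oxidases, which act on lysine and hydroxylysine in the short non-helical ends. Bone matrix is rich in hydroxylysine-derived crosslinks, and inherited loss of FKBP10 or PLOD2 gives the brittle bones and joint contractures of Bruck syndrome.

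Values below are log2 spot brightness after background correction, relative to the 75th percentile of the gene probes of the same array, so 0 is that percentile and a difference of 1 is a factor of 2. Where a spot had reached the scanner limit, its value in the spot tables holds no difference, and the deposited series value table, also in log2, was read instead. It had fewer probes near the limit, taking the lowest value of each column as a brightness of 1. Between 53.5% and 61.9% of probes lay above background on the 6 arrays, 320 to 468 probes per array were at the limit, and arrays correlated with each other at 0.964 to 0.986 over probes. The position and tilt of the scanned grid put control 1 and control 2 on one slide and control 3 with all 3 LIPUS arrays on another. Slide and group are thus partly confounded, and each main result is given with slide as a block. Since control 3 is the only control on its slide, a fixed slide block compares the LIPUS arrays with that 1 control array. The osteoblast markers of the culture were present, with 10 of 12 having a probe. These were above background on all 6 arrays, except Sp7 on 5. Macrophage markers were present too (13 of 16 with a probe, all above background). RNA of both kinds was thus present, and in such bulk samples fewer cells of a type and less RNA per cell cannot be told apart.

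All 12 probes of the 8 genes were above background on all 6 arrays. Fkbp10 and Plod2 rose in LIPUS and the other 6 genes did not pass the test (limma adjusted p under 0.05 over 21847 features). Over all features 2.89% were called higher, against 2 of the 8 genes. The genes and the lists below were chosen with earlier results of these data known. Their counts and medians beside all features are thus not an independent test. The 6 genes never at the scanner limit all had estimates above 0, with a median of 0.47 against 0.03 over all features never at the limit. Scaling to the spike-in controls, which rests on 5 probes, moved the median of all features to −0.32. Under it Plod1, Plod3 and Loxl1 of these 6 genes were below 0, and with slide as a block P4ha1 was. Pcolce, at the limit on all 6 arrays, holds no difference in the spot tables. For 5 of the 8 genes every LIPUS array lay above every control array, as did 14.4% of all features. In the value table all 8 estimates were above 0, with a median of 0.45 against −0.03 over all features. There 7 of 8 had every LIPUS array above every control array (14% of features), and only Fkbp10 was called (1.31% of features called higher).

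**Figure D1:**
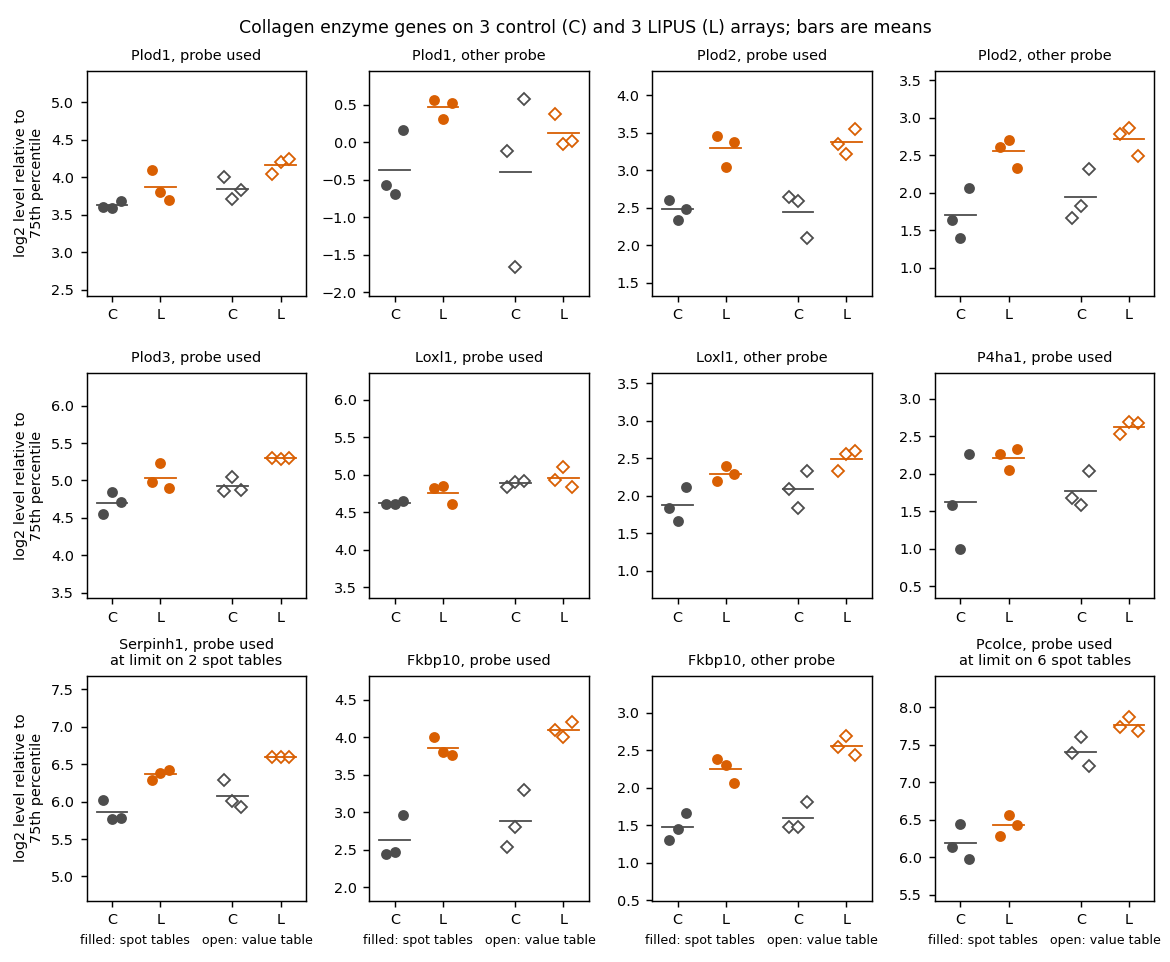
Log2 level of each probe of the 8 genes, relative to the 75th percentile of its array, on 3 control (C, grey) and 3 LIPUS (L, orange) arrays. Filled circles are the spot tables, open diamonds the value table and bars the means of 3 arrays. In the spot tables the LIPUS points of Fkbp10 and Plod2 lie wholly above the control points on both probes, whereas P4ha1 overlaps because control 3 is at 2.27. Each panel has its own axis range, and levels are not comparable between probes.

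Of the 2 folding factors of the endoplasmic reticulum, Fkbp10 rose and Serpinh1 did not pass the test. Fkbp10 (NM_001014120) encodes FKBP65, a prolyl isomerase that binds procollagen and assists lysyl hydroxylase 2. Control arrays 1 to 3 read 2.45, 2.47 and 2.97, and LIPUS arrays 1 to 3 read 4.01, 3.81 and 3.76. The groups did not overlap, and control 3 was the control nearest to the LIPUS arrays. The control mean was 2.63 ± 0.29 and the LIPUS mean 3.86 ± 0.13 (SD over 3 arrays each). This is a rise of 1.23 ± 0.19 (SE), or 2.34-fold (limma adjusted p = 0.00544), larger than the change of 99.6% of features. A second Fkbp10 probe read 1.31, 1.45 and 1.66 in control and 2.39, 2.30 and 2.07 in LIPUS, and it also rose, by a smaller 0.78 ± 0.17 (adjusted p = 0.0276 with every probe tested on its own). In the value table the first probe stood at 2.54, 2.80 and 3.29 in control and at 4.10, 4.0 and 4.20 in LIPUS. The rise there was 1.22 ± 0.22 (limma adjusted p = 0.0444), and 0.96 ± 0.17 on the second probe (0.0387).

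With slide as a fixed block the rise of Fkbp10 was 0.89 ± 0.19 and was not called (adjusted p = 0.0875), nor was any of the 8 genes, with 0.554% of features called higher. With slide as a random block Fkbp10 (1.14, adjusted p = 0.0118) and Plod2 (0.82, 0.0418) were called, with 1.96% of features. Under spike-in scaling Fkbp10 alone was called (0.88, adjusted p = 0.0120), with 0.902% of features. Fkbp10 kept its call in the spot tables whichever array was left out (adjusted p at most 0.0301, without control 1). From the value table it kept the call only when control 3 was left out (0.0373), and without each of the other 5 arrays in turn the adjusted p was 0.112 to 0.148.

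Serpinh1 (NM_017173) encodes HSP47, the collagen-specific chaperone that binds the folded triple helix. Its spot brightness was at the scanner limit on LIPUS 1 and LIPUS 3, so those readings are lower bounds. Control arrays read 6.03, 5.76 and 5.78, LIPUS arrays 6.29, 6.38 and 6.43, without overlap. The difference was 0.51 ± 0.16 and did not pass (limma adjusted p = 0.0944), with a 95% confidence interval of 0.15 to 0.87, all read from values capped on 2 arrays. In the value table the probe stood at 6.29, 6.0 and 5.92 in control and at 6.60, 6.59 and 6.60 in LIPUS, a difference of 0.52 ± 0.16 (adjusted p = 0.135). The LIPUS arrays thus lay above the control arrays there without passing the test.

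**Figure D2:**
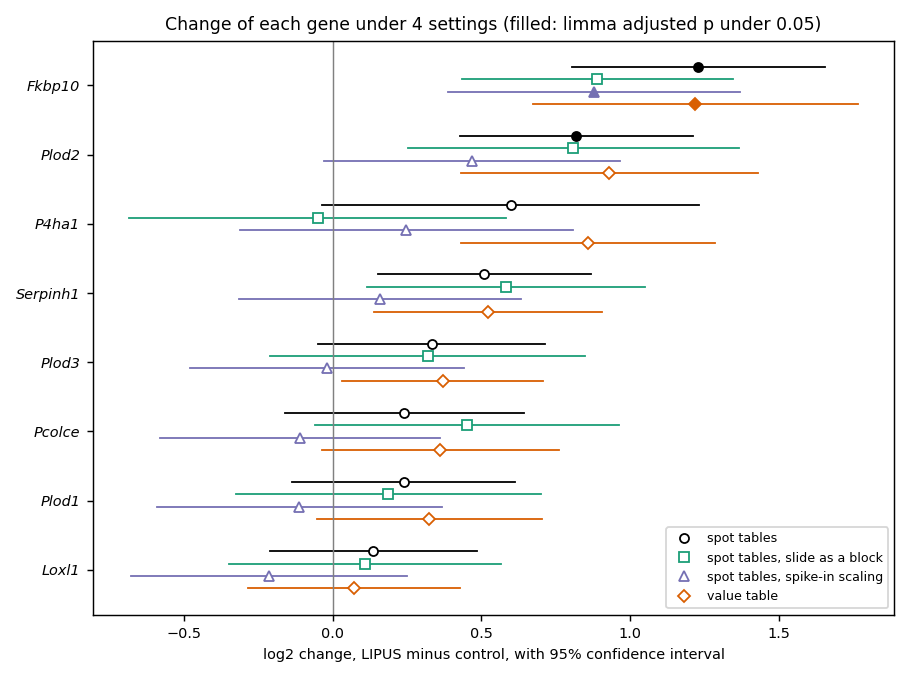
Estimated log2 change, LIPUS minus control, of each gene with its 95% confidence interval, from the spot tables (black circles), with slide as a block (green squares), with spike-in scaling (purple triangles) and from the value table (orange diamonds). Filled symbols have a limma adjusted p under 0.05, and only Fkbp10 and Plod2 have one. Fkbp10 stays between 0.88 and 1.23, while P4ha1 runs from −0.05 with slide as a block to 0.86 in the value table. The spot-table estimates of Pcolce reflect the scaling alone.

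Of the 3 lysyl hydroxylase genes, Plod2 rose, and Plod1 and Plod3 did not pass the test. Plod2 encodes lysyl hydroxylase 2, which hydroxylates lysines in the non-helical ends of collagen and so sets the type of crosslink. Plod1 encodes the enzyme that acts mainly on helical lysines, and Plod3 one that also transfers sugars to hydroxylysine. Because PLOD2 is known as a target of hypoxia-inducible factor (HIF), the 250 bases before the start of the 3 genes are shown, from RefSeq's table on build GRCr8, 5′ to 3′ on the gene's strand. The table held such a window for 8 of the 10 genes, not for Fkbp10 or Lox. Plod2 lies at chr8:101964068-101964317 (+ strand), Plod1 at chr5:163650738-163650987 (− strand) and Plod3 at chr12:25323632-25323881 (− strand). Capitals mark, on either strand, the HIF core (ACGTG or GCGTG), the GC box (GGGCGG) and the RUNX motif (TGTGGT).
Plod2: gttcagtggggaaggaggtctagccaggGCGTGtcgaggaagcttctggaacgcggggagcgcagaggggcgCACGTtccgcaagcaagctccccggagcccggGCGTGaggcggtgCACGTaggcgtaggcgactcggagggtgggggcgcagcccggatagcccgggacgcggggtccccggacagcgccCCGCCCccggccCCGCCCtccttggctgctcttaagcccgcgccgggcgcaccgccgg
Plod1: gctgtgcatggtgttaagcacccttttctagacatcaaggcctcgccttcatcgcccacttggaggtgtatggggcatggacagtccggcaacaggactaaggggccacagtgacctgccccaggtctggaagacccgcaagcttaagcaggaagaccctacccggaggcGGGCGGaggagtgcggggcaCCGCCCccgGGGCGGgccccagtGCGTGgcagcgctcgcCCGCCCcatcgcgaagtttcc
Plod3: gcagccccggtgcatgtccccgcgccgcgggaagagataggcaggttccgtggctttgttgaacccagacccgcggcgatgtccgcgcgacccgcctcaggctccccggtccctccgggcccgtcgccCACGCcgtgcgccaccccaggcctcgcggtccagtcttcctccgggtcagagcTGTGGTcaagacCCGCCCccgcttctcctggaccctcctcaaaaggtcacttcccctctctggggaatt

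The Plod2 window held 4 HIF cores and 2 GC boxes. That of Plod1 held 1 HIF core and 4 GC boxes, and that of Plod3 held 1 HIF core, 1 GC box and 1 RUNX motif. The HIF core is short, and ACGTG is also part of the E-box CACGTG. At least 1 HIF core was found in 36.7% of 33469 rat windows of the same length and at least 4 in 2.44%, a GC box in 30.5% and the RUNX motif in 14.5%. The cut of 4 is the count of Plod2 itself. G and C made up 74.8% of the Plod2 window, 65.6% of that of Plod1 and 69.6% of that of Plod3. The rat windows were not matched for this, so these shares do not show that Plod2 is unusual. Neither CCAAT (34% of windows) nor TATAAA (12.9%) was found in any of the 3. Among the other windows P4ha1 held 2 HIF cores, P4ha2 5, Pcolce 1, and Serpinh1 and Loxl1 none. These matches describe the letters of the windows and were not tied to any binding.

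Plod2 (NM_175869) stood at 2.60, 2.34 and 2.49 on control arrays 1 to 3 and at 3.46, 3.05 and 3.38 on LIPUS arrays 1 to 3. The groups were separated by more than the spread within either. The means were 2.48 ± 0.13 and 3.30 ± 0.22 (SD, n = 3 each), a rise of 0.82 ± 0.18 (SE), or 1.77-fold (limma adjusted p = 0.0239). The second probe, at 1.63, 1.40 and 2.06 in control and 2.61, 2.71 and 2.33 in LIPUS, rose by 0.86 ± 0.21 (adjusted p = 0.0382 with every probe tested on its own). Both probes thus gave the same direction and, over all 6 arrays, a like size. The value table put the first probe at 2.65, 2.58 and 2.10 in control and 3.35, 3.22 and 3.56 in LIPUS. That difference of 0.93 ± 0.21 was not called (limma adjusted p = 0.0677), nor was 0.77 ± 0.22 on the second probe (0.122). In the spot tables the call was lost without control 1 (0.0598), control 2 (0.0844), LIPUS 1 (0.0954) or LIPUS 3 (0.0890). With slide as a block the estimate of the first probe was as large (0.81 ± 0.24) but not called (limma adjusted p = 0.162). Under spike-in scaling it was 0.47 ± 0.24 (0.178). Against control 3 alone, the control array on the slide of the LIPUS arrays, the second probe was higher by only 0.49 in the spot tables. In the value table the difference from control 3 was 1.27 on the first probe and 0.39 on the second, so the probes parted in that contrast.

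Plod3 (NM_178101) read 4.56, 4.84 and 4.72 in control and 4.98, 5.24 and 4.90 in LIPUS. Control 2 came close to LIPUS 3 without overlap, and the difference of 0.33 ± 0.17 did not pass (limma adjusted p = 0.288, 95% confidence interval −0.05 to 0.71). It was 0.37 ± 0.14 in the value table (adjusted p = 0.202). Plod1 (NM_053827) read 3.61, 3.60 and 3.68 in control and 4.10, 3.81 and 3.70 in LIPUS, with LIPUS 3 close to control 3. The difference was 0.24 ± 0.17 (adjusted p = 0.444, interval −0.13 to 0.61), and 0.33 ± 0.16 in the value table (0.296). A dimmer second Plod1 probe differed by 0.83 ± 0.23 (adjusted p = 0.0651 with every probe tested on its own), but by 0.52 ± 0.56 in the value table, where its groups overlapped. The 2 Plod1 probes therefore disagree on the size of the difference.

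Whether Plod2 moved more than its relatives was tested on differences within each array, which cancel the scaling between arrays. For Plod2 minus Plod1 the control arrays gave −1.01, −1.26 and −1.20 and the LIPUS arrays −0.64, −0.76 and −0.32, a shift of 0.58 towards Plod2. The groups did not overlap, and the two-sided exact permutation p was 0.1, the smallest that 3 against 3 arrays can give (0.3 after Benjamini-Hochberg adjustment over 3 pairs). The same shift in the value table was 0.61 (exact permutation p = 0.1, adjusted 0.15). Plod2 minus Plod3 shifted by 0.49 with overlap (exact permutation p = 0.2, adjusted 0.3), and by 0.56 without overlap in the value table (0.1, adjusted 0.15). Plod3 minus Plod1 shifted by 0.09 (exact permutation p = 0.7) and by 0.04 in the value table (0.8), within the spread of the arrays. The shift between Plod2 and Plod1 also depended on the Plod1 probe, as tried after the data were seen. Against the dimmer Plod1 probe it was −0.01 and 0.02 for the 2 Plod2 probes in the spot tables (exact permutation p = 1 for both). There the value table gave 0.41 and 0.25 with overlap (exact permutation p = 0.7 and 0.6). A difference in response between the 3 genes was thus not shown at this number of arrays.

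**Figure D3:**
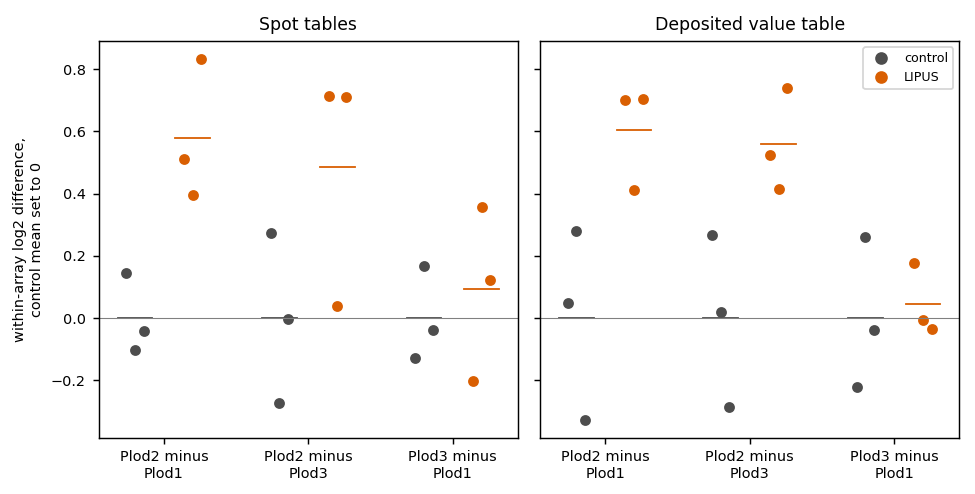
Within-array log2 difference between pairs of lysyl hydroxylase genes on 3 control (grey) and 3 LIPUS (orange) arrays, after setting the mean of the control arrays of each pair to 0. Points are arrays and bars means, from the spot tables (left) and the value table (right). The LIPUS arrays lie above all control arrays for Plod2 minus Plod1 in both sources with the brighter Plod1 probe drawn here, and for Plod3 minus Plod1 the groups overlap in both.

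P4ha1 (NM_172062) encodes a catalytic subunit of prolyl 4-hydroxylase. It has 1 probe, and the spot tables and the value table differed on it. In the spot tables it stood at 1.59, 1.00 and 2.27 in control and at 2.26, 2.05 and 2.34 in LIPUS. Control 3 lay among the LIPUS arrays, and the difference of 0.60 ± 0.28 did not pass (limma adjusted p = 0.250, 95% confidence interval −0.03 to 1.23). The value table gave 1.68, 1.59 and 2.04 in control and 2.53, 2.69 and 2.67 in LIPUS. There the groups did not overlap, and the difference was 0.86 ± 0.18 (adjusted p = 0.0572). Against control 3 alone, the control array on the slide of the LIPUS arrays, the LIPUS mean differed by −0.05 in the spot tables and by 0.59 in the value table. Without control 3 the estimate was 0.92 in the spot tables (adjusted p = 0.0411) and 0.99 in the value table (0.0437). In that subset the slides of the control arrays and of the LIPUS arrays differ, so slide and treatment cannot be told apart.

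The remaining 2 genes act outside the cell. Pcolce (NM_019237) encodes the enhancer of the protease that removes the C-terminal propeptide of procollagen. Its spot was at the scanner limit on all 6 arrays. Its spot-table reading of 0.24 holds no difference in brightness, as the 276 features at the limit on all arrays read 0.15 to 0.28 through the scaling alone. The value table gave 7.39, 7.60 and 7.21 in control and 7.73, 7.87 and 7.69 in LIPUS. The probe lay there at 40.8% to 53% of the limit, if the lowest value of each column stands for a brightness of 1. The LIPUS arrays lay higher without overlap, and the difference of 0.36 ± 0.16 did not pass (limma adjusted p = 0.274, 95% confidence interval −0.04 to 0.76).

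Loxl1 (NM_001012125) encodes a lysyl oxidase that is best known for crosslinking elastin and also acts on collagen. Its first probe showed the smallest difference of the 8 genes. It read 4.61, 4.61 and 4.65 in control and 4.83, 4.85 and 4.61 in LIPUS. The groups overlapped through LIPUS 3, and the difference was 0.14 ± 0.16 (limma adjusted p = 0.650, 95% confidence interval −0.21 to 0.49). The value table gave 0.07 ± 0.15 (adjusted p = 0.818). The second probe read 1.83, 1.67 and 2.12 in control and 2.19, 2.40 and 2.29 in LIPUS, a difference of 0.42 ± 0.17 that did not pass either (adjusted p = 0.195 with every probe tested on its own).

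**Figure D4:**
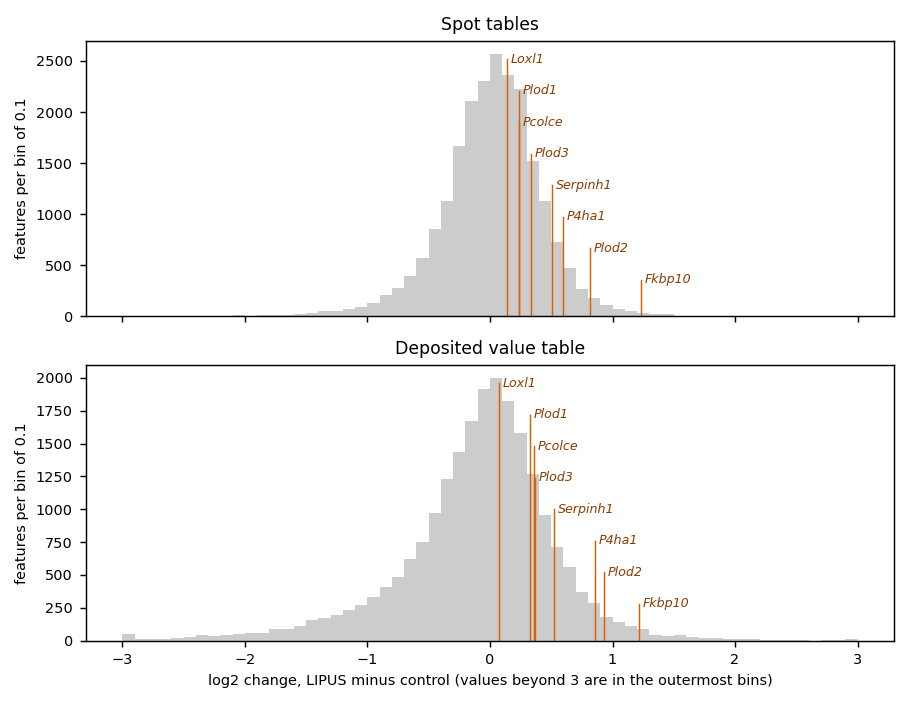
Number of features per bin of 0.1 in log2 change, LIPUS minus control (grey bars), for the 21847 features tested in the spot tables (top) and the value table (bottom), with the change of each gene as a vertical line. Line heights only separate the names. Fkbp10 and Plod2 lie in the right tail, above 99.6% and 97.8% of features in the spot tables, whereas Loxl1 lies above 62.1%. The Pcolce line in the top panel reflects the scaling alone.

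The size of the change was thus spread over the group. In the spot tables Fkbp10 (99.6%) and Plod2 (97.8%) exceeded nearly all features, followed by P4ha1 (94.2%) and Serpinh1 (91.3%). Plod3 (81.2%), Plod1 (72.3%) and Loxl1 (62.1%) lay nearer the middle. The value table kept Fkbp10 first at 98.5% and Plod2 next at 96.9%, with Pcolce at 81.4% and Loxl1 again last at 59.3%.

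Other genes that modify and fold collagen were followed in a list of 27, of which 17 were tested. P3h1 and P3h4 rose (2.89% of all features were called higher), none fell and 15 did not pass. The median was 0.32 against 0.03 over all features (−0.03 under spike-in scaling). P3h1 (NM_053667) encodes prolyl 3-hydroxylase 1. It went from 4.71 ± 0.09 in control to 5.96 ± 0.11 (SD over 3 arrays each), a rise of 1.25 ± 0.16 (limma adjusted p = 0.00201). P3h4 (NM_021581) encodes a non-enzymatic relative that works with lysyl hydroxylase 1, and rose from 1.80 ± 0.10 to 2.99 ± 0.20 (1.20 ± 0.17, limma adjusted p = 0.00369). Both kept their call whichever array was left out and in the value table (1.25 and 1.15). With slide as a block P3h1 was still called (adjusted p = 0.0445) and P3h4 was not (0.0583). Next by p was Fkbp11, a prolyl isomerase gene of secretory cells, with 0.60 ± 0.17 (0.0742). P4ha3 and P3h2 lay below the background filter.

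Of 17 genes for propeptide removal, crosslinking and fibril assembly 6 were tested. Lum and Dcn rose (2.89% of all features were called higher), none fell and 4 did not pass. The median of 0.22 includes genes at the scanner limit, and over the 4 genes never at it the median was −0.0027. Lum and Dcn encode small leucine-rich proteoglycans that bind collagen fibrils rather than enzymes. Lum (NM_031050), for lumican, rose from 4.67 ± 0.26 to 5.78 ± 0.22 (1.10 ± 0.19, limma adjusted p = 0.0101, and 0.87 from the value table). Dcn (NM_024129), for decorin, rose from 5.51 ± 0.07 to 6.32 ± 0.17 (0.81 ± 0.16, limma adjusted p = 0.0181, and 0.83 from the value table) and was at the limit on 1 array. The call of Dcn was lost without control 1 (0.0617), control 2 (0.0510), LIPUS 1 (0.0617) or LIPUS 2 (0.0790), and neither gene was called with slide as a block (Lum 0.147, Dcn 0.0959). Fn1, the fibronectin gene, was at the limit on all 6 arrays, so its spot-table p is not read, and it differed by −0.37 in the value table (adjusted p = 0.437).

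Among 20 genes for collagen chains, the substrates of these enzymes, 6 were tested. Of these 2 rose, 1 fell and 3 did not pass, beside 2.89% of all features called higher and 3.74% called lower. The median was 0.64, and 1.24 over the 4 chains never at the scanner limit. Col11a2 (NM_212528), for a chain of the minor fibrillar collagen XI, rose from 4.06 ± 0.04 to 5.57 ± 0.21 (1.51 ± 0.17, limma adjusted p = 0.00121). Col5a1 (NM_134452), for the main chain of collagen V, rose from 4.41 ± 0.29 to 5.45 ± 0.08 (1.04 ± 0.18, limma adjusted p = 0.0104). The call of Col5a1 was lost without control 1 (0.0508), in the value table (1.01, 0.0577) and with slide as a block (0.126). Col5a3 (NM_021760), for another collagen V chain, fell from 2.40 ± 0.11 to 1.26 ± 0.18 (−1.14 ± 0.17, limma adjusted p = 0.00429). Col11a2 (1.56) and Col5a3 (−1.47) were also called in the value table, and both with slide as a block. Col2a1, for the chain of cartilage collagen, read 3.53 ± 1.17 in control and 4.97 ± 0.66 in LIPUS, and its difference of 1.44 ± 0.52 did not pass (limma adjusted p = 0.140). Col1a2 and Col3a1, chains of the abundant fibrillar collagens, were at the limit on all 6 arrays and differed by 0.11 (adjusted p = 0.717) and −0.13 (0.690) in the value table.

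The hydroxylases need iron, oxygen and ascorbate, and the lysyl oxidases need copper. Of 8 genes for ascorbate, copper and zinc supply 5 were tested, and none was called in either direction. The median was −0.01, with 2 of 5 estimates above 0. In the value table none was called either, but the median was 0.25, with 4 of 5 above 0. Slc23a2 was above background on only 3 of the 6 arrays. The smallest p-values belonged to Gulo, for the last enzyme of ascorbate synthesis (0.33 ± 0.18, limma adjusted p = 0.305), the copper importer gene Slc31a1 (−0.37 ± 0.24, 0.399) and the ascorbate transporter gene Slc23a2 (0.38 ± 0.36, 0.577). Of 20 known HIF targets outside the collagen pathway 17 were tested. None rose, Slc2a3 fell and 16 did not pass, with a median of 0.17. The 1 gene of 17 stands beside 3.74% of all features called lower. Slc2a3 (NM_017102), for a glucose transporter, went from −0.89 ± 0.05 to −1.74 ± 0.17 (−0.85 ± 0.16, limma adjusted p = 0.0137). Its call was lost without control 1 (0.0549), control 2 (0.0505), LIPUS 1 (0.0649) or LIPUS 2 (0.0543), with slide as a block (0.123) and in the value table (−0.58, 0.362). Adm, for the peptide adrenomedullin, was at −0.66 ± 0.18 (0.0552) and Bnip3, a mitophagy gene, at 0.57 ± 0.16 (0.0720). Of the 17 estimates 13 were above 0 (11 in the value table), beside 11799 of all 21847 features. The median was 0.12 over the 16 genes never at the scanner limit, and −0.18 over all 17 under spike-in scaling. A part of HIF in the rise of Plod2 was not tested.

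**Figure D5:**
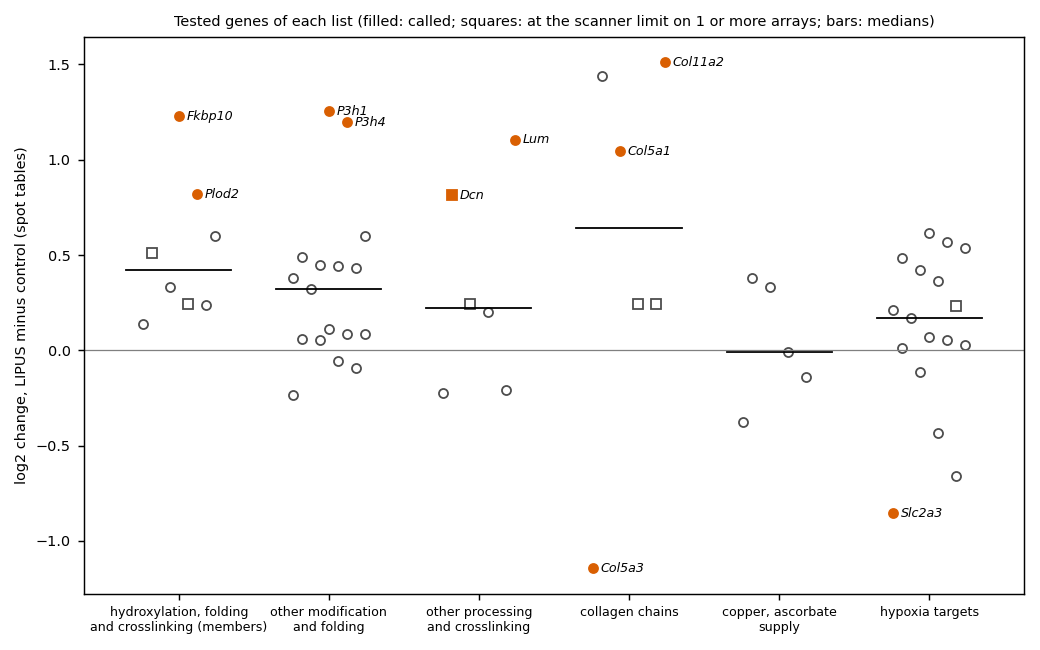
Log2 change, LIPUS minus control, of the tested genes of 6 lists in the spot tables. Filled symbols have a limma adjusted p under 0.05, squares were at the scanner limit on at least 1 array and bars are list medians. In each of the first 3 lists 2 genes rose and none fell, the collagen chains hold Col11a2, Col5a1 and the uncalled Col2a1 above 1 and Col5a3 at −1.14, and the medians of the 2 other pathway lists are below 0 under spike-in scaling.

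Markers of some cell types in such cultures differed between the groups. The lists were chosen with earlier results of these data known, so their counts are not an independent test. Over all features 2.89% were called higher and 3.74% lower. Of 10 tested osteoblast markers 4 rose (Panx3, Dmp1, Smpd3 and Phex) and none fell, and their summed level, in multiples of the 75th percentile, was 263 to 329 in control and 373 to 434 in LIPUS. Of 13 macrophage markers 8 fell and none rose (554 to 659 in control, 458 to 492 in LIPUS), and of 5 endothelial markers 4 fell (6.45 to 7.10 against 2.62 to 3.07), with Pecam1 and Emcn below the filter. The osteoblast and macrophage sums are not read as changes, since 3 osteoblast and 5 macrophage markers were at the scanner limit on 3 or more arrays. Capped values understate the range. Features at the limit on all 6 arrays, as Bglap, Spp1 and Col1a2 were, read 0.15 to 0.28 higher in LIPUS through the scaling alone. Bglap and Spp1, at the limit on all 6 arrays, rose in the value table by 1.97 (limma adjusted p = 0.0135) and 2.07 (0.0103), where 6 osteoblast markers rose, 8 macrophage markers fell and 1 endothelial marker fell. With slide as a block 3 osteoblast markers rose, 6 macrophage markers fell and 1 endothelial marker fell. Of 7 adipocyte markers Cidec and Scd rose (0 with slide as a block, 1 in the value table), and none of 5 smooth muscle markers was called. Of 10 listed lymphoid, mast and erythroid markers only Ms4a2 and Kit were tested, and neither was called. The lymphoid and erythroid markers were thus not tested. The summed level of the 8 collagen enzyme genes was 201 to 219 in control and 266 to 285 in LIPUS. Pcolce, at the limit on all 6 arrays, and Serpinh1, at it on 2, are part of these sums. The Pcolce reading is higher in LIPUS through the scaling alone, so the distance between the sums is not read as a change of the 8 genes. The part of the cell type markers in the rises of Fkbp10 and Plod2 was not tested.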

How the data were processed

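RNA of 3 control and 3 LIPUS samples was hybridised to single-colour arrays, 45220 spots each. Per the file headers, the authors deposited for each array a spot table with spot and background brightness (intensity), the percent of saturated pixels, and spot position and quality flag (score). The scanner and its software are not named in the sources. The authors also deposited a value table in log2, with the 75th percentile of every column at 0. The steps behind it are likewise not given.

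Spot medians were corrected with normexp (offset 50, limma 3.58.1, R 4.3.3), log2-transformed, averaged per probe and set relative to each array's 75th percentile. Probes above the 95th percentile of 153 negative control spots on at least 3 arrays were kept, with the probe of highest mean per gene. Groups were compared with limma (lmFit, eBayes; two-sided; Benjamini-Hochberg over 21847 features, 5697 of them named). Accessions were named through RefSeq's rat table (GRCr8), which gave 10768 of 41012 gene probes a symbol. Precision is limited by the number of arrays.

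The members and lists were chosen with earlier results of these data known. Named are all members with every probe and, of each other list, the called genes or, with fewer than 3 called, those of smallest unadjusted p up to 3. The promoters of Plod1 and Plod3 were added beside that of Plod2 after values were seen. Slide was inferred from the scanned grid. No pairing by replicate number was seen (correlation of deviations −0.012 to 0.0095, and −0.0165 to 0.0163 between unlike numbers). This does not show that the samples were unpaired. Alternatives covered blocks, scaling, background, filter, probe rule, value table and leaving out each array. The fits were tested on simulated data. There 30% of features given a log2 change of 1 were called, and 90% of those given a change of 2. Not passing the test thus does not show that a gene was unchanged. Figures were drawn with matplotlib 3.10.9.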

Additional observations from a re-analysis of the deposited data

How the results depend on the processing

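Over all features 1449 were called, and 282 with slide as a fixed block, 3719 under spike-in scaling (5.3% of calls higher, against 43.6%), 655 without the filter on dim probes, 805 in the value table (35.7% higher) and 642 to 2168 when 1 array was left out. Median centring gave 1462, with 32.3% higher. Within slide 2, which sets 1 control array against 3 LIPUS arrays with the lone array assumed to vary like the others, limma called 0 features (3339 at an unadjusted p under 0.05), so 0 members, 0 other collagen pathway genes, 0 collagen chains and 0 HIF targets. With slide as a fixed block the calls were 0 of the members, 1 other pathway gene and 0 HIF targets. Of the 2 members called, 1 remained (Fkbp10) under spike-in scaling, without the dim-probe filter and in the value table, and 1 to 3 were called when 1 array was left out. From the table of deposited values 1 member was called, 0 with the replicate block or any form of slide block or within slide 2, 2 with the mean over the probes of a gene, and 0 to 2 when 1 array was left out. Of the HIF targets 1 was called, 2 under median centring or quantile normalization, 3 under spike-in scaling or the filter on all 6 arrays, 0 without the filter or in the value table, and 0 to 4 with 1 array left out. Under spike-in scaling 1 cofactor gene was called, against 0. The cause of these differences was not tested.

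The sign turned for P4ha1 with slide as a block and within slide 2 (−0.0499 in both, which are the same contrast with control 3), for Plod1 (−0.11), Plod3 (−0.0182), Loxl1 (−0.21) and Pcolce (−0.11) under spike-in scaling, and for Pcolce under quantile normalization (−0.0047); the Pcolce spot was at the limit on all arrays. The shift of Plod2 minus Plod1 turned to −0.0119 with the other Plod1 probe. The replicate block gave 1175 calls in the spot tables, Fkbp10 and Plod2 among them, and no pairing by number was seen. In the value table the replicate block gave 0 calls in limma (4101 at an unadjusted p under 0.05). The precision is limited by 3 arrays a group, by slides shared unevenly between groups and by bright probes at the scanner limit.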
